A study of Mus musculus with 35 samples.

Results

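The question addressed here was whether the effect of surplus human apoA-I on the aortic transcriptome of apoE-deficient mice changed as Western diet (WD) feeding went on. It was asked as an interaction, the EKO/hA-I minus EKO difference after 22 weeks of WD minus the same difference after 6 weeks, for each of 14157 genes. It used 12 of the 35 aorta libraries of the series, chosen by their titles, with 3 in each of 4 groups. The groups were EKO/hA-I and EKO mice after 22 weeks of WD, and EKO/hA-I and EKO mice after 6 weeks of WD. The other libraries of the series, from wild-type mice on either diet and from chow-fed EKO and EKO/hA-I mice, entered the same fit and its estimate of the spread. The chow-fed EKO and EKO/hA-I groups are also set beside the result at the end. EKO mice lack apolipoprotein E, and EKO/hA-I mice lack it too and in addition overexpress human apoA-I. All 4 groups carried the C57BL/6 strain label and began their diet at 8 weeks of age, so that age (30 or 14 weeks) and time on diet cannot be told apart. The promoter that drives the human gene is not given in the sources used here, nor is it stated whether a library came from 1 animal, so the p-values reflect library-to-library spread, which may be technical. Whole aortas, cleared of surrounding fat, were sequenced.

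ApoA-I is the main protein of high-density lipoprotein, the particle that takes up cholesterol from cells through transporters such as ABCA1 and carries it to the liver. Without apoE, remnant lipoproteins stay in the blood, enter the artery wall and are taken up by macrophages. These become foam cells, which hydrolyse lipoprotein cholesterol and sphingolipids in lysosomes and store re-esterified cholesterol in droplets. Lysosomal genes are known targets of TFEB and related factors, which bind a short palindrome, the CLEAR E-box.

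The sequences that bear on the 2 main groups of genes described, lysosomal and macrophage genes, are promoters. The 250 bases before the RefSeq start site (GRCm38.p6) were searched on both strands in the 10750 tested genes that have one. The palindrome TCACGTGA (CLEAR E-box) occurred in 1.63% of them. It occurred in 13 of the 480 windows of genes with a negative call (2.71%), a call meaning an adjusted p under 0.05. It was present in 7 of 63 genes of the 4 lysosome lists that had a window (11.1%), namely Atp6v1a, Cln3, Ctsa, Ctsd, Gla, Igf2r and Mcoln1. Of these 7, all but Cln3 and Mcoln1 passed the test (adjusted p under 0.05) with a negative interaction, one in which EKO/hA-I stood lower relative to EKO at 22 than at 6 weeks. Of all 63 genes, with or without the palindrome, 32 had such a call, and 15.6% of those 32 held it. The windows of the hydrolase gene Gla (chrX:134601006-134601255, minus strand), of the cathepsin D gene Ctsd (chr7:142387828-142388077, minus strand) and of the protective protein gene Ctsa (chr2:164833523-164833772, plus strand) are shown 5′ to 3′ with the palindrome in capitals.
Gla: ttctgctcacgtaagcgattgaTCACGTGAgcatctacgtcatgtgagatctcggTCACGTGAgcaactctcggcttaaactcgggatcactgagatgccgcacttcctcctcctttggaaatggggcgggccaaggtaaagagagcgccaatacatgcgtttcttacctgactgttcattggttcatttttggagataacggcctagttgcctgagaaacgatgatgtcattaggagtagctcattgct
Ctsd: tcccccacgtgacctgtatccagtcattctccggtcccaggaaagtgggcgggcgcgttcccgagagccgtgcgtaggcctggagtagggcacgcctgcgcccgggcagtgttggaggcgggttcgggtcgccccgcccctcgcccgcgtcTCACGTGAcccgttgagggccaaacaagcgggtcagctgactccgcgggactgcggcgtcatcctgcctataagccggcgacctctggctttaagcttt
Ctsa: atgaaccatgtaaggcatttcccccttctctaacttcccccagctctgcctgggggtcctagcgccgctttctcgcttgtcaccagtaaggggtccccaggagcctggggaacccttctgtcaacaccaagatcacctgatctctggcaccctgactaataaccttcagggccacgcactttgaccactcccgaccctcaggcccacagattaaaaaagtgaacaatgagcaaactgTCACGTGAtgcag
Gla held the palindrome at 228 and 195 bases before the start, Ctsd at 99 and Ctsa at 13. The AP-1 motif TGANTCA occurred in 5.85% of all windows, in 10.8% of the 480 windows of genes with a negative call and in 5 of 23 macrophage genes with one (21.7%), and in 13.9% of the macrophage genes whether called or not. Those 5 were Cd68, Cybb, Itgax, Mmp12 and Trem2. The windows of Cd68 (chr11:69666171-69666420, minus strand), a macrophage membrane protein, and of Trem2 (chr17:48346151-48346400, plus strand), a lipid receptor of macrophages, have the AP-1 motif in capitals.
Cd68: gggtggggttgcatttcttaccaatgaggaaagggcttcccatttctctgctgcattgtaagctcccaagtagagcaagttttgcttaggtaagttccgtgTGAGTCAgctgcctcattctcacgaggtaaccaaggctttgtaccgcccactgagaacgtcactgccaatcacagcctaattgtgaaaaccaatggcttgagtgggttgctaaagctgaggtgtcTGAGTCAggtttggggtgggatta
Trem2: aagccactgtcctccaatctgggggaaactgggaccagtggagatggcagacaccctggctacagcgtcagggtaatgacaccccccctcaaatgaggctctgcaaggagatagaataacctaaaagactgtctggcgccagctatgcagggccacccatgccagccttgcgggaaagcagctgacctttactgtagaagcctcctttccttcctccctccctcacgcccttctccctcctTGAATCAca
GAGGAAG, the core bound by the myeloid factor PU.1, was in 13.2% of all windows, in 20.4% of those with a negative call, in 34.8% of the called macrophage genes and in 38.9% of all 36 genes of the 4 macrophage lists with a window. The SREBP motif TCACNCCAC, which shares its first 4 letters with the CLEAR E-box, was in 1.27% of all windows and 1.88% of those with a negative call, and the muscle E-box CAGCTG in 14.8 and 16.7%. The muscle E-box was also in 26.1% of the called macrophage genes and 21.9% of the called lysosome genes. The exact LXR DR4 repeat had 0 matches in the 10750 windows. These matches describe letters and are no binding sites.

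Behind the 12 libraries stood 12740000 to 25330000 reads, as inferred from the smallest step between values. Apoe was at 5.37 to 29.7 normalised reads in the 23 EKO/hA-I and EKO libraries and at 416 to 1276 in the 12 wild-type libraries. The human transgene has no row of its own. Mouse Apoa1 ranged over 0.85 to 1.28 in the EKO/hA-I libraries on WD, against 0 to 1.91 in the EKO ones. On WD, Y-linked transcripts were lacking in 1 library of each of the 4 groups. Smooth muscle markers were high in all 12, but so were brown adipocyte markers, although the fat had been removed. The sum of 13 brown adipocyte markers was 8207 to 10738 in EKO/hA-I against 2075 to 7261 in EKO aortas at 22 weeks, and 3302 to 7807 against 4377 to 12506 at 6 weeks. The sum of 14 skeletal muscle markers was 1290 to 4393 against 41.5 to 193 at 22 weeks, and 80.4 to 5669 against 39.9 to 104 at 6 weeks. No marker of either list was at 0 in every library of a group. The sum of 12 adipokine and white adipocyte genes was 21476 to 30530 against 6632 to 16584 at 22 weeks, and 11357 to 28273 against 7511 to 25776 at 6 weeks. The sum of 7 erythroid genes was 938 to 4245 against 5826 to 8606 at 22 weeks, and 1116 to 4596 against 4306 to 6892 at 6 weeks. All 4 sums lay apart at 22 weeks and overlapped at 6 weeks, where the highest skeletal muscle sum came from 1 EKO/hA-I library, replicate 2.

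**Figure D1:**
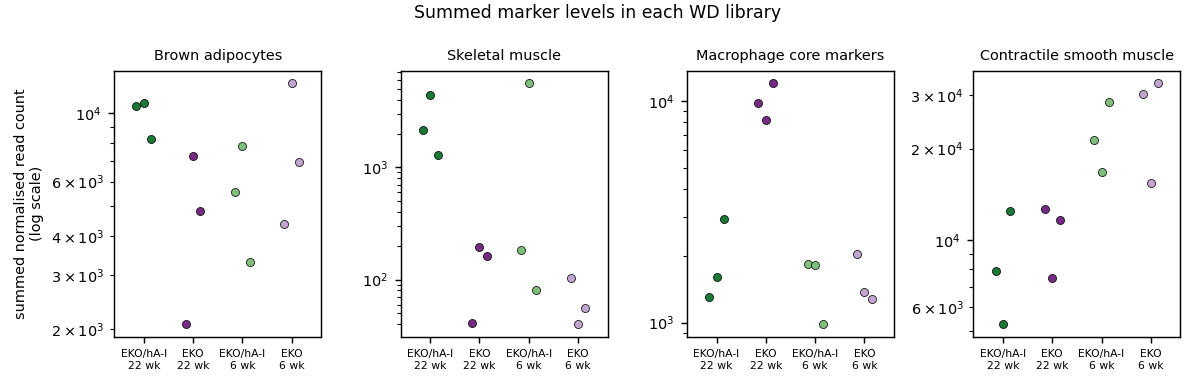
Summed normalised read counts (log scale) of 4 marker lists in each WD library, 1 point a library, 3 a group. Brown adipocyte and skeletal muscle sums at 22 weeks are higher in every EKO/hA-I library than in any EKO library, macrophage sums are lower, and contractile smooth muscle sums overlap.

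Of 14157 genes, 725 passed an adjusted p of 0.05 for the interaction (5.12%, limma with Benjamini-Hochberg adjustment). In 638 (4.51%) it was negative, and in 87 (0.615%) it was positive. Among the 638, the median EKO/hA-I minus EKO difference was -1.50 on the log2 scale at 22 weeks and -0.05 at 6 weeks, against -0.02 and -0.03 over all genes. Among the called genes, 176 had a negative interaction of at least 4-fold and 8 a positive one. Of all genes tested, called or not, 280 reached that size in either direction. Differences are of log2(value + 1), which understates the change of low genes, and the value after ± is the SE where one is given.

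Tested alone, the difference at 22 weeks passed for 2668 genes (18.8%), 1824 of them lower (12.9%) and 844 higher (5.96%) in EKO/hA-I, and for 1415 and 1561 without replicate 1 of EKO or of EKO/hA-I. The difference at 6 weeks passed for 10 genes (0.0706%), 6 of them lower (0.0424%) and 4 higher (0.0283%), for 6 without EKO replicate 3 or EKO/hA-I replicate 1, and for 17 without EKO/hA-I replicate 3. The 2 differences share no library. Across genes they correlated with Pearson's r = 0.277, and genes are not independent replicates. Of the 10 genes called at 6 weeks, 9 passed at 22 weeks too, all with the same sign.

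**Figure D2:**
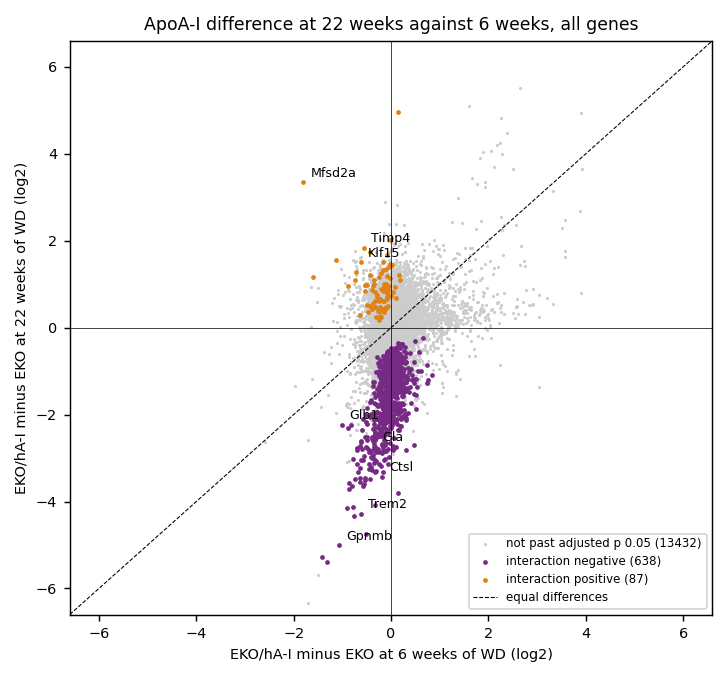
EKO/hA-I minus EKO difference (log2) after 22 weeks of WD (vertical) against that after 6 weeks (horizontal), 1 point a gene. The 638 genes with a negative interaction call (purple) lie near 0 at 6 weeks and far below it at 22 weeks, and the 87 with a positive one (orange) lie above the dashed line of equal differences.

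The count changed when single libraries were left out. It was 1107 without EKO 6 weeks replicate 1, 398 without replicate 2 and 457 without replicate 3 of that group, 441 without EKO 22 weeks replicate 1, 471 without its replicate 3 and 442 without EKO/hA-I 22 weeks replicate 1. A total of 348 genes, 338 of them negative, passed in all 12 fits that left out 1 library. With a term for the brown adipocyte marker mean, added after seeing the data, 324 genes passed, among them 260 of the 638 negative calls and 8 of the 87 positive ones. Planned beforehand were terms for brown fat and skeletal muscle, and 4 tissue terms that add cardiac muscle and nerves. With the first, 312 genes passed, among them 244 of the negative calls and 6 of the positive ones. With 4 tissue terms 432 passed, among them 347 of the negative calls and 6 of the positive ones. Genes described with full values below passed in all 12 fits unless stated. Fewer cells of a type and less RNA per cell cannot be told apart in whole aorta.

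Among 15 lysosomal proteases and their inhibitors (cathepsins and cystatins), 11 were lower and 1 higher in EKO/hA-I at 22 weeks, and 0 passed at 6 weeks. For the interaction, 8 passed with a negative interaction and 0 with a positive one, and the list's median was -1.34 against -0.02 over all genes. Ctsl, a cysteine protease, had 287, 319 and 425 normalised reads in EKO/hA-I against 3771, 2496 and 5187 in EKO aortas at 22 weeks. At 6 weeks it had 506, 354 and 374 in EKO/hA-I against 702, 360.3 and 393 in EKO aortas. The groups were far apart at 22 weeks and overlapped at 6 weeks, and the interaction was -3.24 ± 0.34 (adjusted p = 9.8e-06 in limma). It passed under every alternative that was run.

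Ctsd, the aspartic protease whose promoter is shown above, had 1670.3, 1693 and 1905 in EKO/hA-I against 6246, 5432 and 9068 in EKO aortas at 22 weeks. Its values at 6 weeks were 1714, 1539 and 1090.4 against 1828, 1804 and 1587. The 6-week groups overlapped, and the interaction was -1.66 ± 0.28 (adjusted p = 0.00059). The collagen-degrading Ctsk (-2.93 ± 0.49), legumain (Lgmn, -2.44 ± 0.33), which cuts after asparagine, and cathepsin B (Ctsb, -1.62 ± 0.28) also passed, with adjusted p between 0.0001 and 0.00072. With the brown fat term 7 of the 15 passed, and the median was -0.96.

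Of 16 genes for the breakdown of sphingolipids in lysosomes, 9 passed with a negative interaction, 9 in each fit that left out 1 library and 10 with the brown fat term. The count was 11 with 4 tissue terms, 8 with brown fat and skeletal muscle terms and 7 in a fit of the 4 compared groups alone. The list's median was -0.91, and 12 of the 16 were below 0. Gla, which removes the terminal galactose of globotriaosylceramide, had 7.78, 8.73 and 13.9 in EKO/hA-I against 81.4, 55.0 and 81.0 in EKO aortas at 22 weeks. At 6 weeks it had 12.9, 11 and 9.95 against 21.6, 11.9 and 11.3. Only the 6-week groups overlapped. The difference was -2.74 ± 0.19 at 22 weeks and -0.32 ± 0.19 at 6 weeks, an interaction of -2.42 ± 0.27 (adjusted p = 1.3e-05 in limma).

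Hexa, which takes part in degrading the ganglioside GM2, had an interaction of -1.42 ± 0.25. Acid ceramidase, Asah1, which splits ceramide into sphingosine and a fatty acid, had 64.0, 56.7 and 86.4 in EKO/hA-I against 232, 161 and 211 in EKO aortas at 22 weeks. Its 6-week values were 90.7, 83.2 and 85.9 against 110.0, 93.3 and 86.6, with overlap, and the interaction was -1.39 ± 0.20 (adjusted p = 0.00015). Psap, the precursor of the saposins that present lipids to these enzymes, had -1.51 ± 0.27. Ctsa, the carboxypeptidase that stabilises beta-galactosidase and neuraminidase, is named for its promoter, after its values were seen, and had -1.33 ± 0.26.

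Glb1, the lysosomal beta-galactosidase, differed from these in that it was already lower at 6 weeks. It had 14.6, 14.1 and 16.3 in EKO/hA-I against 66.4, 67.0 and 91.5 in EKO aortas at 22 weeks, and 13.5, 23.7 and 17.3 against 43.8, 30.6 and 36.6 at 6 weeks. The groups lay apart at both times. The difference was -2.23 ± 0.18 at 22 weeks and -1.01 ± 0.18 at 6 weeks (adjusted p = 0.02), and the interaction was -1.22 ± 0.26 (adjusted p = 0.0046), which was lost with the brown fat term (adjusted p = 0.063).

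Of 20 enzymes of ceramide and sphingomyelin synthesis, 5 passed with a negative interaction, with a list median of -0.28. B4galt5, a lactosylceramide synthase, had -1.58 ± 0.31 and passed in all 12 fits, whereas Sptlc2, a subunit of the first enzyme of the pathway, had -0.58 ± 0.17 and lost its call in 9 of 12 fits. The list's count was 3 without EKO 22 weeks replicate 1, EKO 6 weeks replicate 3, EKO/hA-I 22 weeks replicate 1, or EKO/hA-I 6 weeks replicate 1 or 3, and 1 with the brown fat term. Of 13 sphingosine 1-phosphate enzymes and receptors only the receptor S1pr2 passed (-1.44 ± 0.38), and it kept the call in 6 of 12 fits, with a highest adjusted p of 0.09 without EKO 6 weeks replicate 2.

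Among 36 other lysosomal hydrolases, membrane and trafficking proteins, 18 passed with a negative interaction and 0 with a positive one, and the median was -0.63. Gusb, which cleaves glucuronic acid from glycosaminoglycans, had 69.5, 82.6 and 119 in EKO/hA-I against 490.0, 443 and 581 in EKO aortas at 22 weeks. At 6 weeks it had 112, 85.6 and 71.9 against 148, 78.4 and 96.4. Again only the 22-week groups lay apart, with an interaction of -2.26 ± 0.30 (adjusted p = 9.3e-05). Galns, a sulphatase of keratan sulphate, had -2.05 ± 0.30, the mannosidase Man2b1 -1.47 ± 0.28 and Igf2r, which sorts new enzymes to lysosomes by their mannose 6-phosphate, -1.10 ± 0.20. With the brown fat term 12 of the 36 passed, with a median of -0.59, and with 4 tissue terms 13. The count was 9 in a fit of the 4 compared groups alone. It was 12 without EKO 22 weeks replicate 3, EKO 6 weeks replicate 2 or EKO/hA-I 6 weeks replicate 1.

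Of 18 subunits of the proton pump that acidifies lysosomes, 7 passed with a negative interaction. The osteoclast and macrophage subunit Tcirg1 had 71.4, 80.8 and 105 in EKO/hA-I against 254, 241 and 345 in EKO aortas at 22 weeks, and 109, 79.8 and 68.1 against 121, 67.9 and 89.5 at 6 weeks. Its 6-week groups overlapped and its interaction was -1.59 ± 0.28 (adjusted p = 0.0011). Atp6v0d2, another subunit of macrophages and osteoclasts, had a larger and less certain interaction, -3.84 ± 0.98 (adjusted p = 0.019). It was lost in 5 fits, with adjusted p 0.057 without EKO 22 weeks replicate 3, 0.067 and 0.056 without EKO 6 weeks replicates 2 and 3, 0.084 without EKO/hA-I 22 weeks replicate 1 and 0.072 without EKO/hA-I 6 weeks replicate 1. The count of subunits was 4 without EKO 22 weeks replicate 3, EKO 6 weeks replicate 2 or EKO/hA-I 22 weeks replicate 1, and 3 with the brown fat term. It was 2 with 4 tissue terms.

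Of 16 MiT/TFE factors and lysosomal signalling genes, which regulate lysosomes, 2 passed with a negative interaction, against 4.51% of all genes, and the median was -0.08. They were Fnip2 (-1.65 ± 0.26), a partner of folliculin, and Tfec (-1.74 ± 0.34), a factor of the family found in macrophages. Tfeb, added to the text after its values were seen, had 29.3, 47.3 and 33.7 in EKO/hA-I against 34.0, 36.5 and 39.5 in EKO aortas at 22 weeks, and 49.7, 34.7 and 40.6 against 51.5, 34.0 and 44.0 at 6 weeks. Its groups overlapped at both times.

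Macrophage genes were the other large group. Of 18 core macrophage markers 11 passed with a negative interaction, and the list's median was -2.07. Their summed level was 1310 to 2930 in EKO/hA-I against 8171 to 12056 in EKO aortas at 22 weeks, and 981 to 1835 against 1284 to 2033 at 6 weeks. Cd68 had 28.5, 47.0 and 74.9 in EKO/hA-I against 413, 345 and 586 in EKO aortas at 22 weeks. Its 6-week values were 72.8, 40.1 and 23.8 against 84.7, 47.2 and 41.4. The sums and Cd68 alike lay apart at 22 weeks only, and the interaction of Cd68 was -2.80 ± 0.63 (adjusted p = 0.0075).

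Msr1, a scavenger receptor for modified lipoproteins, had 8.36, 10.8 and 18.3 in EKO/hA-I against 121, 95.4 and 132 in EKO aortas at 22 weeks, and 12.4, 10.4 and 6.02 against 20.9, 7.63 and 7.72 at 6 weeks. Its interaction was -2.97 ± 0.57 (adjusted p = 0.002). The complement subunit gene C1qa, made mainly by macrophages, had -2.10 ± 0.45 (adjusted p = 0.0048). Both passed with the brown fat term, as did 5 of the 18 markers, and the list's median with it was -2.04. With 4 tissue terms 10 of the 18 passed, with a median of -2.33, and with brown fat and skeletal muscle terms 3. The count was 9 to 13 with 1 library left out.

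Genes of lipid-associated macrophages, which in mice depend on Trem2, counted 11 negative calls of 18 and a median of -1.84. Trem2 itself had 3.69, 11.8 and 28.3 in EKO/hA-I against 225, 189 and 302 in EKO aortas at 22 weeks. At 6 weeks it had 26.1, 10.8 and 7.79 against 37.1, 13.6 and 17.1. Its groups overlapped only at 6 weeks, and the interaction of -3.67 ± 0.84 (adjusted p = 0.0087) was lost with the brown fat term (adjusted p = 0.08). Lgals3, a galectin of foam cells, had -3.33 ± 0.70 and the integrin Itgax -3.59 ± 0.79, and their adjusted p with that term was 0.054 and 0.061. The tetraspanin Cd63 (-1.95 ± 0.38) passed with it.

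Other members of that list had large differences at 22 weeks and uncertain interactions. Gpnmb, a lysosomal glycoprotein of foam cells, had 52.0, 241 and 329.5 in EKO/hA-I against 4888, 3658 and 7846 in EKO aortas at 22 weeks, and 631, 100.4 and 144 against 898, 258 and 362 at 6 weeks. EKO/hA-I replicate 1 at 22 weeks stood far below the other 2 libraries of its group, and replicate 1 of each 6-week group far above. Its interaction of -3.94 ± 1.10 (adjusted p = 0.032) was lost in 6 fits, at adjusted p 0.066 and 0.091 without EKO 22 weeks replicates 1 and 3, 0.11 and 0.082 without EKO 6 weeks replicates 2 and 3, 0.14 without EKO/hA-I 22 weeks replicate 1 and 0.11 without EKO/hA-I 6 weeks replicate 1. Spp1, osteopontin, named after its values were seen, had 33.4, 269.6 and 658 in EKO/hA-I against 11159.6, 6934 and 10718 in EKO aortas at 22 weeks, yet its interaction of -4.18 ± 1.75 did not pass (adjusted p = 0.18). The list's count was 7 without EKO 22 weeks replicate 1, and 6 without its replicate 3, without EKO 6 weeks replicate 2 or 3, without EKO/hA-I 22 weeks replicate 1 or without EKO/hA-I 6 weeks replicate 1. It was 5 with the brown fat term, with a median of -1.98, and 4 in a fit of the 4 compared groups alone.

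Among the genes of largest negative interaction outside the lists, Lhfpl2, a membrane protein, had 18.3, 25.3 and 25.2 in EKO/hA-I against 258, 185 and 274 in EKO aortas at 22 weeks, and 43.0, 21.3 and 19.1 against 48.2, 26.3 and 20.2 at 6 weeks. Its interaction was -3.14 ± 0.48 (adjusted p = 0.00027). The ubiquitin ligase Rnf128 (-3.77 ± 0.75), the MS4A protein Ms4a7 (-3.09 ± 0.63) and hexokinase 3 (Hk3, -3.08 ± 0.59), an isoform of myeloid cells, passed in all 12 fits too.

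Among 12 genes of resident adventitial macrophages none passed in limma (2 at an unadjusted p under 0.05), and the list's median was 0.01. Folr2, a folate receptor of such cells, had 39.1, 25.3 and 39.2 in EKO/hA-I against 73.2, 58.8 and 65.7 in EKO aortas at 22 weeks and 22.7, 41.4 and 26.3 against 26.5, 28.4 and 22.2 at 6 weeks. The 22-week groups lay apart, and the interaction was -1.12 ± 0.46 (adjusted p = 0.18). The mannose receptor Mrc1 had -0.99 ± 0.47 (adjusted p = 0.25).

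**Figure D3:**
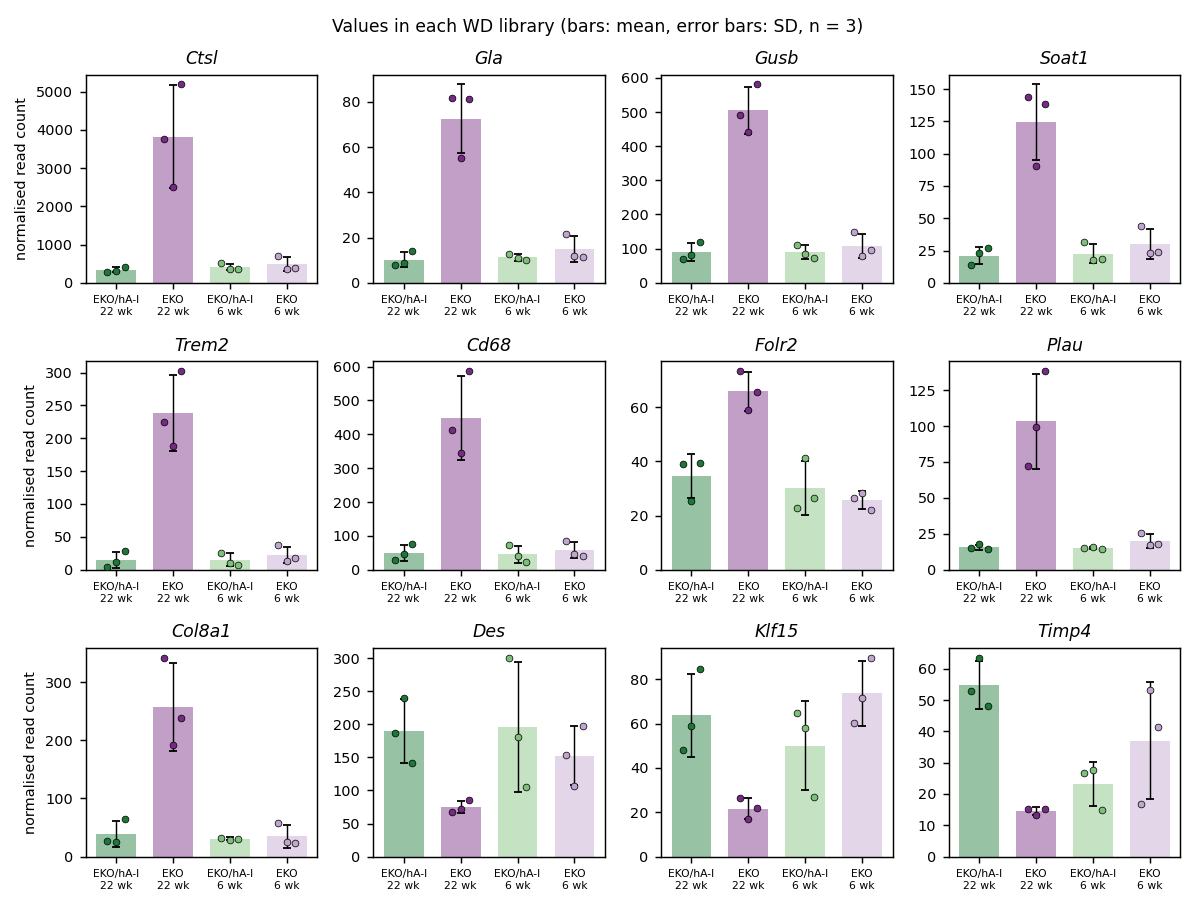
Normalised read counts of 12 genes in each WD library (points), with group means (bars) and SD (error bars, n = 3). In the lysosomal, macrophage and matrix genes the EKO 22-week bar stands above the 3 other groups, whereas in Des, Klf15 and Timp4 it is the lowest.

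Of 15 Fc receptors and ITAM or ITIM signalling genes, 10 passed with a negative interaction and the median was -2.06. Cd300lb, an activating receptor, had 5.08, 4.30 and 8.21 in EKO/hA-I against 51.7, 38.6 and 63.1 in EKO aortas at 22 weeks, and 7.06, 3.74 and 3.40 against 9.09, 4.20 and 5.79 at 6 weeks. Its interaction was -2.58 ± 0.45 (adjusted p = 0.00089). The inhibitory receptor Lilrb4a had -3.06 ± 0.61 and the IgG receptor Fcgr3 -2.06 ± 0.45. With the brown fat term 5 of the 15 passed, with a median of -2.07.

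Of the 6 subunits of the phagocyte NADPH oxidase, which makes superoxide, 5 passed with a negative interaction. Cybb, the catalytic subunit, had 39.6, 68.5 and 68.1 in EKO/hA-I against 244, 188 and 217 in EKO aortas at 22 weeks, and 42.0, 49.2 and 24.6 against 42.4, 28.5 and 24.0 at 6 weeks. Its groups overlapped at 6 weeks only, and the interaction was -2.16 ± 0.51 (adjusted p = 0.01). The count was 3 without EKO 6 weeks replicate 2 or EKO/hA-I 22 weeks replicate 1, and 2 with the brown fat term.

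Of 11 iron and haem genes 3 passed, and 4 with the brown fat term. These were Slc11a1, the phagosomal metal transporter (-2.12 ± 0.40), haem oxygenase 1 (Hmox1, -1.62 ± 0.32) and the ferritin light chain (Ftl1, -1.53 ± 0.30). Hmox1 had 23.7, 35.9 and 30.8 in EKO/hA-I against 142, 94.7 and 152 in EKO aortas at 22 weeks, and 27.9, 33.4 and 16.1 against 33.5, 39.8 and 29.0 at 6 weeks. Its groups overlapped at 6 weeks only.

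Of 22 chemokines and receptors, 9 passed with a negative interaction. Cxcl16, a membrane-bound chemokine that also binds oxidised lipoprotein, had 20.5, 27.6 and 56.5 in EKO/hA-I against 199, 194 and 223 in EKO aortas at 22 weeks, and 29.8, 34.2 and 20.5 against 40.0, 21.8 and 25.4 at 6 weeks. Its interaction was -2.62 ± 0.43 (adjusted p = 0.00051). Fractalkine, Cx3cl1, had -2.26 ± 0.43 (adjusted p = 0.0021). The count was 5 without replicate 2 of EKO 6 weeks, of EKO/hA-I 22 weeks or of EKO/hA-I 6 weeks, and 4 with the brown fat term. It was also 4 in a fit of the 4 compared groups alone, and 3 when 0.1 instead of 1 was added before taking logs. With 4 tissue terms it was 9, and 6 with brown fat and skeletal muscle terms.

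The fractalkine receptor Cx3cr1, which marks monocytes and some macrophages, differed in sign between the times. It had 8.70, 9.88 and 16.9 in EKO/hA-I against 21.6, 31.9 and 30.8 in EKO aortas at 22 weeks, and 9.72, 14.0 and 6.72 against 6.26, 5.68 and 4.31 at 6 weeks. EKO/hA-I was below EKO in every pair of libraries at 22 weeks and above it in every pair at 6 weeks. The differences were -1.22 ± 0.32 and 0.76 ± 0.32, of which the second did not pass (adjusted p = 0.87), and the interaction was -1.97 ± 0.45 (adjusted p = 0.0085).

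Of 14 adhesion molecules and integrins 4 passed with a negative interaction, and 7 without EKO 6 weeks replicate 1 or EKO/hA-I 22 weeks replicate 3. Cd44, the hyaluronan receptor, had 31.3, 47.1 and 54.5 in EKO/hA-I against 310.5, 187 and 220.3 in EKO aortas at 22 weeks, and 45.9, 41.7 and 36.0 against 75.9, 40.1 and 45.5 at 6 weeks. Its interaction was -2.08 ± 0.33 (adjusted p = 0.00035), and it was the 1 gene of the list that passed with the brown fat term. Vcam1, through which monocytes attach to endothelium, had -2.27 ± 0.47 (adjusted p = 0.004, and 0.051 with that term).

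Of 18 complement genes 4 passed with a negative interaction, 2 with the brown fat term and 4 with 4 tissue terms. The list's median was -0.76, and 16 of the 18 were below 0. They were the 3 C1q chains and the receptor C3ar1 (-2.77 ± 0.59). Of 11 genes of MHC class II presentation only the protease Ctss passed (-3.04 ± 0.78, adjusted p = 0.02), and it did so in 6 of 12 fits, with a highest adjusted p of 0.088 without EKO/hA-I 22 weeks replicate 1. None of 20 interferon-stimulated and MHC class I genes passed in limma (1 at an unadjusted p under 0.05), with -0.64 ± 0.26 for H2-D1 (adjusted p = 0.17). None of 15 lymphocyte genes passed (0 unadjusted). Ptprc, the leukocyte antigen CD45, had 48.2, 222 and 61.2 in EKO/hA-I against 159, 137 and 153 in EKO aortas at 22 weeks, where replicate 2 of EKO/hA-I also had the highest lymphocyte sum, 2813 against 247 and 537 in the other two. None of 18 cell cycle genes passed (1 unadjusted), with -0.50 ± 0.20 for Pcna (adjusted p = 0.15).

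Genes that handle cholesterol were split. Of 14 genes of cholesterol ester storage and lipid droplets 3 passed with a negative interaction, while the list's median was 0.05, and -0.37 with the brown fat term. Soat1, the enzyme that esterifies cholesterol in foam cells, had 13.6, 23.2 and 26.7 in EKO/hA-I against 144, 90.8 and 139 in EKO aortas at 22 weeks, and 31.4, 17.8 and 18.6 against 43.7, 22.9 and 24.2 at 6 weeks. Its groups overlapped at 6 weeks, and the interaction was -2.13 ± 0.37 (adjusted p = 0.00084). Npc1, which exports cholesterol from lysosomes, had -1.18 ± 0.21, and the ester hydrolase Nceh1 -2.57 ± 0.53. All 3 list members that passed did so in all 12 fits, and 3 of the list passed with the brown fat term.

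Of 12 measured LXR targets and efflux genes 2 passed. Pltp, the phospholipid transfer protein, had 185, 195 and 258 in EKO/hA-I against 655, 641 and 836 in EKO aortas at 22 weeks, and 242, 232 and 170.4 against 218, 184 and 191 at 6 weeks. Its interaction was -1.85 ± 0.33 (adjusted p = 0.0012). The sterol transporter Abcg1 had -1.91 ± 0.48 (adjusted p = 0.018), and lost the call without EKO 22 weeks replicate 1 or 3, EKO 6 weeks replicate 2 or 3, EKO/hA-I 22 weeks replicate 1 or EKO/hA-I 6 weeks replicate 1, at adjusted p up to 0.077, which leaves 1 of the list. None of 19 genes of sterol synthesis (1 at an unadjusted p under 0.05) and none of 13 of fatty acid synthesis (1 unadjusted) passed in limma. The medians of both lists changed sign with the brown fat term, to -0.20 against 0.25 for sterol and -0.30 against 0.66 for fatty acid synthesis. Insig1, the sterol sensor of the endoplasmic reticulum, had 1.53 ± 0.66 (adjusted p = 0.2). Of 14 scavenger and lipoprotein receptors 4 passed with a negative interaction, among them Msr1, Cd68 and Olr1, the endothelial receptor for oxidised LDL (-1.84 ± 0.44). The VLDL receptor Vldlr had a positive one, 0.85 ± 0.23 (adjusted p = 0.027), lost in 5 fits with a highest adjusted p of 0.11 without replicate 2 of EKO 6 weeks or replicate 3 of EKO/hA-I 6 weeks.

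In the vessel wall, matrix-degrading enzymes had calls in both directions, mostly negative. Of 19 metalloproteinases and inhibitors 8 passed with a negative and 1 with a positive interaction, with a median of -1.56, and 6 passed with the brown fat term. Mmp13, a collagenase, had 0.672, 1.87 and 12.1 in EKO/hA-I against 69.7, 41.6 and 57.2 in EKO aortas at 22 weeks, and 1.76, 4.66 and 1.13 against 3.07, 1.53 and 1.37 at 6 weeks. Low levels in 3 of the 4 groups left a large distance only at 22 weeks, and the interaction was -3.97 ± 0.65 (adjusted p = 0.00054). Adam8, a sheddase of myeloid cells, had -2.95 ± 0.57 and Mmp27 -2.22 ± 0.32.

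Mmp12, the elastase of macrophages, had an interaction of -4.08 ± 1.15 (adjusted p = 0.036). It had 4.03, 27.4 and 51.9 in EKO/hA-I against 816, 683 and 1016 in EKO aortas at 22 weeks, and 45.4, 14.8 and 15 against 136, 34.1 and 37.2 at 6 weeks. EKO/hA-I replicate 1 at 22 weeks stood far below the other 2 libraries of its group, and the call was lost in 6 fits. Adjusted p was 0.075 and 0.084 without EKO 22 weeks replicates 1 and 3, 0.12 and 0.10 without EKO 6 weeks replicates 2 and 3, 0.15 without EKO/hA-I 22 weeks replicate 1 and 0.10 without EKO/hA-I 6 weeks replicate 1.

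Plau, the urokinase that activates plasminogen, had 15, 17.6 and 14.4 in EKO/hA-I against 72.4, 99.2 and 138 in EKO aortas at 22 weeks, and 14.9, 15.6 and 14.6 against 25.4, 16.9 and 17.9 at 6 weeks. The groups did not overlap at either time, but the distance was far larger at 22 weeks. Its difference was -2.60 ± 0.22 at 22 weeks and -0.37 ± 0.22 at 6 weeks, an interaction of -2.22 ± 0.30 (adjusted p = 0.0001). Of the 6 measured genes of plasminogen activation it and Anxa2 (-0.98 ± 0.25) passed. Anxa2, a plasminogen-binding annexin, lost its call without EKO 22 weeks replicate 3, EKO 6 weeks replicate 2 or EKO/hA-I 6 weeks replicate 2 (adjusted p 0.053, 0.06 and 0.051), which leaves 1 of the list.

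Of 18 genes of modulated smooth muscle and cartilage-like cells 6 passed with a negative interaction, with a median of -1.45. Cemip, which binds and degrades hyaluronan, had 0.084, 1.62 and 4.18 in EKO/hA-I against 74.9, 41.9 and 87.9 in EKO aortas at 22 weeks, and 1.69, 0.552 and 0.212 against 1.54, 1.37 and 1.45 at 6 weeks. It was near 0 in every library but those of EKO at 22 weeks, and its interaction was -4.24 ± 0.57 (adjusted p = 9.8e-05). Osteoprotegerin, Tnfrsf11b, had -2.46 ± 0.42, and Runx2, the master factor of bone cells, -1.89 ± 0.39. With the brown fat term 3 of the 18 passed, with a median of -0.61. None of 18 contractile smooth muscle genes passed in limma (1 at an unadjusted p under 0.05), and their median was -0.15. With the brown fat term that median turned to 1.01, and with 4 tissue terms to 1.05, where 1 gene passed with a positive interaction. Des, desmin, had 1.03 ± 0.47 (adjusted p = 0.23).

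Matrix genes passed in part. Of 18 collagens 6 passed with a negative interaction, with a median of -1.28. Col8a1, a short-chain collagen of vessels, had 27.2, 24.9 and 64.5 in EKO/hA-I against 341, 193 and 238 in EKO aortas at 22 weeks, and 32.7, 27.6 and 30.5 against 57.6, 24.5 and 22.6 at 6 weeks. Its interaction was -2.72 ± 0.51 (adjusted p = 0.0017). Col1a1, of fibrillar collagen I, had -2.07 ± 0.61 (adjusted p = 0.043) and kept its call in 4 of 12 fits, with adjusted p up to 0.14 without EKO 6 weeks replicate 2. The count was 3 without EKO 22 weeks replicate 1 or 3, EKO 6 weeks replicate 2 or 3, EKO/hA-I 22 weeks replicate 2 or EKO/hA-I 6 weeks replicate 2 or 3, and 1 with the brown fat term, where the median was -0.48.

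Of 20 elastic fibre and small proteoglycan genes 4 passed, among them lumican (Lum, -2.76 ± 0.60), a keratan sulphate proteoglycan that was also the 1 call of 12 adventitial fibroblast genes, and Loxl2 (-1.63 ± 0.37), which cross-links collagen. The count was 2 without EKO/hA-I 22 weeks replicate 1 and 0 with the brown fat term (median -0.22 against -1.02, and for Lum adjusted p = 0.068). Of 14 matricellular genes 4 passed with a negative and 1 with a positive interaction, and the count was 1 to 3 without any 1 library other than EKO 6 weeks replicate 1, EKO 22 weeks replicate 2 or EKO/hA-I 22 weeks replicate 3. Wisp1, a Wnt-induced CCN protein, passed in all 12 (-1.86 ± 0.43), but not with the brown fat term (adjusted p = 0.13). None of 15 endothelial genes passed in limma (4 at an unadjusted p under 0.05), with 1.17 ± 0.45 for Robo4 (adjusted p = 0.15).

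**Figure D4:**
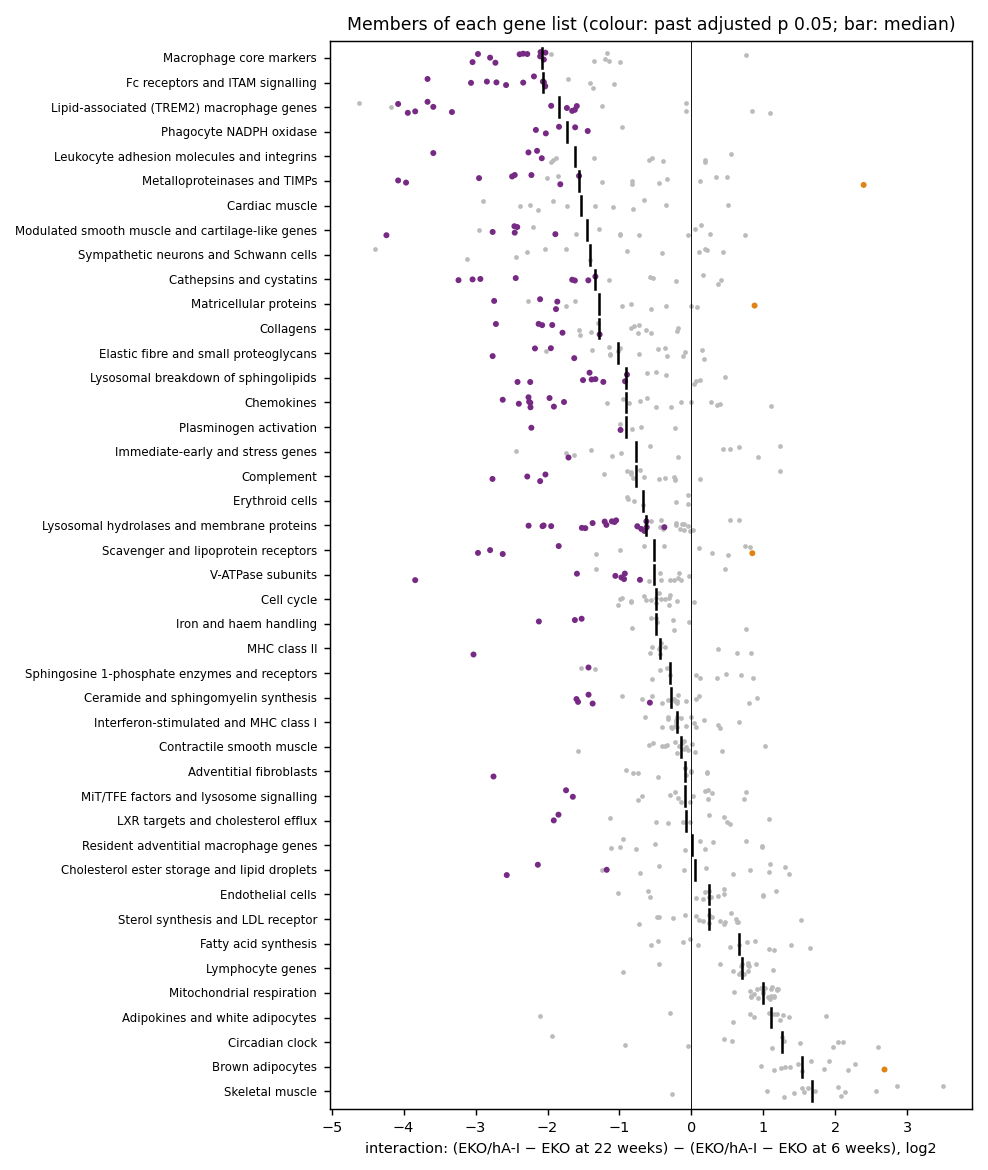
Interaction (log2) of each tested member of 43 gene lists, ordered by median (black bar). Coloured points passed an adjusted p of 0.05, purple with a negative and orange with a positive interaction. The list of lysosomal hydrolases and membrane proteins is the longest and holds the most, 18 of 36. Some shorter lists hold larger shares, such as 10 of 15 Fc receptor and ITAM genes.

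Positive interactions were fewer, and 10 of 87 (11.5%) passed in all 12 fits, against 338 of 638 negative ones (53.0%). Klf15, a Krüppel-like factor induced by glucocorticoids and fasting, had 48.1, 58.8 and 84.6 in EKO/hA-I against 26.3, 16.9 and 21.7 in EKO aortas at 22 weeks, and 64.8, 58.1 and 27.1 against 60.4, 71.4 and 89.5 at 6 weeks. The groups lay apart at 22 weeks, with EKO lowest, and overlapped at 6 weeks. Its interaction was 2.13 ± 0.41 (adjusted p = 0.0024) and passed with the brown fat term.

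Timp4, a metalloproteinase inhibitor of heart and fat, had 52.9, 63.4 and 48.2 in EKO/hA-I against 15.1, 13.2 and 15.3 in EKO aortas at 22 weeks, and 26.9, 27.6 and 14.9 against 16.7, 53.2 and 41.3 at 6 weeks. Its interaction was 2.40 ± 0.47 (adjusted p = 0.0028), and adjusted p was 0.053 with terms for brown fat and skeletal muscle together. Among the 12 genes of largest positive interaction that the rule named, Usp2, a deubiquitinase under clock control, had 1.99 ± 0.48, and its call was lost without EKO 6 weeks replicate 2 (adjusted p = 0.053) and with the brown fat term (0.15).

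Mfsd2a, a transporter of lysophosphatidylcholine, had the largest interaction of the genes named, 5.15 ± 1.30 (adjusted p = 0.018). It had 36.3, 56.4 and 44.1 in EKO/hA-I against 7.40, 3.52 and 1.44 in EKO aortas at 22 weeks, and 15.3, 5.39 and 0.779 against 8.27, 48.2 and 16.5 at 6 weeks. The 6-week groups overlapped, with a wide spread in each, and EKO replicate 2, its highest library at 6 weeks, also had the highest brown adipocyte sum there. The call was lost without EKO 22 weeks replicate 3 (adjusted p = 0.06), EKO 6 weeks replicate 2 (0.076) or EKO/hA-I 6 weeks replicate 3 (0.067), and with the brown fat term (0.22).

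The differences at 22 and at 6 weeks had opposite signs, each at least 0.5 in size, in 23 of the 725 genes, of which 12 had a positive interaction. The genes named here were chosen for that pattern, so that groups lying apart in opposite directions follow in part from the choice. None of the named ones passed at 6 weeks when that difference was tested alone. Dtx4, a Deltex ubiquitin ligase of the Notch pathway, had 39.8, 23.4 and 43.6 in EKO/hA-I against 66.1, 77.2 and 79.2 in EKO aortas at 22 weeks, and 33.9, 51.2 and 51.1 against 26.1, 23.7 and 23.5 at 6 weeks. As with Cx3cr1, the groups lay apart at both times in opposite directions, and the interaction was -1.93 ± 0.46 (adjusted p = 0.011). Irf4, an interferon regulatory factor of lymphocytes that also acts in brown fat, had the reverse pattern. It had 28.0, 37.6 and 16.3 against 15, 12.5 and 7 at 22 weeks, and 10.4, 11.8 and 6.23 against 31.6, 28.5 and 30.2 at 6 weeks, EKO/hA-I before EKO, and its groups lay apart at both times. Its interaction of 2.77 ± 0.82 (adjusted p = 0.047) was kept in 1 of 12 fits, with adjusted p up to 0.13 without EKO/hA-I 6 weeks replicate 3, and adjusted p was 0.42 with the brown fat term.

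Tissue marker lists held few calls although their medians were far from 0. Of 13 brown adipocyte genes, 1 passed, Slc27a2, a fatty acid transporter (2.68 ± 0.74, adjusted p = 0.032), and the median was 1.53. That call was kept in 4 of 12 fits, with adjusted p up to 0.12 without EKO 6 weeks replicate 2 or EKO/hA-I 6 weeks replicate 3. None passed in limma of 12 adipokine and white adipocyte genes (4 at an unadjusted p under 0.05), 23 of mitochondrial respiration (14 unadjusted), 14 of skeletal muscle (0), 12 of cardiac muscle (0), 13 of nerves (1), 7 of erythroid cells (0) or 13 of the circadian clock (8). Pnpla2, the adipocyte triglyceride lipase, had 1.36 ± 0.54, the respiratory subunit Cox6c 1.07 ± 0.40 and the clock gene Per1 2.04 ± 0.73, with adjusted p of 0.16, 0.13 and 0.12. Of 14 immediate-early genes only Egr2 passed (-1.72 ± 0.44), and it lost the call without EKO 22 weeks replicate 3, EKO 6 weeks replicate 2 or 3, or EKO/hA-I 22 weeks replicate 1 (adjusted p up to 0.097). For brown fat and muscle, no test beyond these fits with tissue terms was made.

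The same interaction on chow, where EKO/hA-I at 6 weeks has 2 libraries, passed for 3919 genes (27.7%), of which 2027 were negative (14.3%) and 1892 positive (13.4%). Without EKO 6 weeks replicate 3 on chow the count was 2298 and without EKO/hA-I 6 weeks replicate 2 it was 1853. Y-linked transcripts were not balanced on chow. They were lacking in EKO replicates 1 and 2 at 22 weeks, and in EKO replicate 1 and EKO/hA-I replicate 2 at 6 weeks. All EKO/hA-I libraries at 22 weeks on chow had them. With a term for their presence (sex term) the chow count was 3500. The WD interaction minus the chow interaction passed for 3709 genes (26.2%), and for 3656 with the sex term. With the brown fat term it passed for 0 in limma (1880 at an unadjusted p under 0.05). On chow the brown adipocyte sum was 2345 to 2828 in EKO/hA-I against 5068 to 10601 in EKO aortas at 22 weeks, and 3736 and 5574 against 2134 to 3224 at 6 weeks, which is the reverse of the order on WD at 22 weeks. Macrophage lists had negative calls on chow too, against 14.3% of all genes. Of the 18 lipid-associated macrophage genes 10 passed with a negative and 1 with a positive interaction on chow (median -1.84, as on WD), of 15 Fc receptor and ITAM genes 7 passed with a negative one (median -1.48), and of 18 core macrophage markers 6 did (median -1.05). For WD minus chow, 2, 0 and 1 of these lists' genes passed with a negative difference, against 12.8% of all genes. Of 15 cathepsins and cystatins 3 passed with a negative interaction on chow (median -0.25) and 7 with a negative WD minus chow difference, and of 16 genes of sphingolipid breakdown 3 and 7. Collagens had the opposite sign on chow, where 13 of 18 passed with a positive interaction, and 17 passed with a negative WD minus chow difference. Ctsl had an interaction of -0.25 ± 0.36 on chow (adjusted p = 0.62). Its WD minus chow difference was -2.98 ± 0.50 (adjusted p = 0.001), and -2.03 with the brown fat term (adjusted p = 0.24). For Gla the same values were -0.20 ± 0.29 on chow and -2.22 ± 0.40 for WD minus chow (adjusted p = 0.0015, and 0.27 with the term).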

How the data were processed

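Aortic RNA was sequenced in 35 libraries of mice, of which 12 give the comparison described. The deposited table holds 1 signal value per gene and library, read counts normalised by the authors so that each library sums to 907492 to 1137737. It holds no raw counts. Bowtie 0.12.2, Bowtie2 and RSEM, and the builds mm8 and mm9, are listed per the submitters' processing notes, without role or order, and the method of normalisation is not given in the sources used here. Of low values (at most 1.5) in the 12 libraries compared, 71.5 to 77.1% lay within 0.02 reads of a whole number. The highest share in the series was 82.1%. Whole reads were thus not recovered, and no count test was used. Spreadsheet conversion had turned 23 symbols into dates, and these rows carry no gene name.

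Values were analysed as log2(value + 1) in R 4.3.3 with limma 3.58.1 (trend, robust), in 1 fit of all 12 groups without covariates, so that all share one estimate of the spread. Genes needed a value of at least 1 in 3 libraries, which removed 17. P-values were adjusted over all 14157 genes by Benjamini-Hochberg, with a threshold of 0.05. Groups follow the titles. The procedure was tested on simulated data. The members and the 44 lists (669 tested genes, 680 listed) were chosen with earlier results of these data known. Named were the 12 most negative and 12 most positive called genes whose mean log2 value reached 3, at most 5 called members of each list (2 of smallest p where none passed) and 4 opposite-sign genes per direction, without predicted genes and receptor segments. Cln3, Ctsa, Mcoln1, Spp1 and Tfeb were added after their values were seen. Alternatives were pseudocounts, filters, scaling, a fit of the compared groups, a replicate block, terms for sex and tissue, and leaving out each library. Counting precision could not be computed from these values.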

Additional observations from a re-analysis of the deposited data

Results flagged for a closer look

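The EKO/hA-I minus EKO difference on WD was itself different between 22 and 6 weeks in 725 genes by the test of the interaction, and the interaction differed between WD and chow in 3709. The second count was 0 with a term for brown adipocyte markers.

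In 8 named genes the difference had opposite signs at the 2 times. They were chosen for that pattern, and none of them passed at 6 weeks when tested alone. Those with a negative interaction were Dtx4 (-1.93), Cx3cr1 (-1.97), Adamts7 (-1.60), a metalloproteinase of the vessel wall, and Nav3 (-1.61), a neuron navigator protein. Adamts7 had 9.03, 7.54 and 11 in EKO/hA-I against 22.0, 15.2 and 15.3 in EKO aortas at 22 weeks, and 14.1, 8.03 and 8.92 against 7.91, 4.27 and 5.15 at 6 weeks, so that its groups lay apart at both times. Its adjusted p was 0.061 with the brown fat term. Nav3 lost its call without EKO 22 weeks replicate 1 (adjusted p = 0.065) or EKO 6 weeks replicate 3 (0.07) in limma.

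Those with a positive interaction were Mfsd2a (5.15), Irf4 (2.77), Slc27a2 (2.68) and Lipg (1.84), an endothelial lipase. All 4 lost their calls with the brown fat term, with adjusted p of 0.22, 0.42, 0.39 and 0.26 in limma. Slc27a2 is itself 1 of the markers whose mean makes up that term, so that the fit cannot judge its call. Lipg kept its call in 4 of the 12 fits that left out 1 library, with adjusted p up to 0.16 without EKO 6 weeks replicate 2.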

How the results depend on the processing

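The count of 725 interactions was 406 in a fit of the 4 compared groups alone, 312 with brown fat and skeletal muscle terms, 432 with 4 tissue terms, 324 with a brown fat term and 455 in the 4-group fit with a replicate block, the last 2 added after seeing the data. It was 569 to 853 under the other pseudocounts, filters, scaling, sex term and variance settings, and 398 to 1107 when 1 library was left out. With the replicate number as a block in the fit of all groups it was 749. Same-numbered libraries correlated above 0.1 in every pair between EKO at 22 and 6 weeks (0.122 to 0.439), but not between any other 2 of the 4 groups (all pairs -0.161 to 0.439), so that the numbers were not taken to pair all 4 groups. The 22-week count was 1126, 1197 and 1443 with brown fat and muscle, 4 tissue and brown fat terms, and 1415 to 2969 with 1 library left out. The 6-week count was 16 with brown fat and muscle terms and 22 with the brown fat term, and 6 to 17 with 1 library left out. The chow count was 551, 274 and 612 with the same 3 sets of terms and 1853 to 4594 with 1 library left out. The WD minus chow count was 0, 0 and 0 with these terms in limma (1758, 1798 and 1880 at an unadjusted p under 0.05) and 2488 to 4063 with 1 library left out. The cause of these shifts was not tested. Of 131 genes tracked, 59 lost their call with the brown fat term and 37 in the 4-group fit, and none of them changed sign in any setting run.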

Other observations

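Some of the 10 genes called between EKO/hA-I and EKO aortas at 6 weeks of WD differed by a similar amount at 22 weeks. Others did not, such as Entpd4 (-1.38 at 6 weeks and -0.57 at 22 weeks) and Glb1 (-1.01 and -2.23). Srprb, a subunit of the signal recognition particle receptor, encoded on chromosome 9, had log2 differences of -0.71 at 22 weeks and -0.68 at 6 weeks. Morf4l1b on chromosome 19 was higher in EKO/hA-I, by 2.24 at 22 weeks and 2.28 at 6 weeks. The galectin Lgals4 on chromosome 7 was higher too, by 1.84 and 1.51. In limma Srprb, Morf4l1b and Lgals4 passed at 6 weeks with adjusted p of 0.024, 7.8e-06 and 0.028.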
